A study of Arabidopsis thaliana with 8 samples.

Results

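The root's response to extracellular ATP (eATP) was compared gene by gene between wild type WS and *gpa1-2*, a null mutant of the Gα subunit. The value used was the ATP response of WS minus that of *gpa1-2*. A response was log2(FPKM + 1) of ATP-treated roots minus that of untreated roots, where FPKM is the number of sequenced fragments scaled to gene length and library size. Genes were included when FPKM was at least 1 in any condition and the scaled counts summed to at least 12 within each genotype. Of 33544 genes, 18688 met both conditions, and 1662 of the 20350 genes that reached 1 FPKM failed the count minimum. A positive difference therefore means a response that was higher in WS, and a negative one a response that was higher in *gpa1-2*.

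Roots of *Arabidopsis thaliana* seedlings were compared in 4 conditions. These were untreated WS, WS after 60 min on ATP medium, untreated *gpa1-2* and *gpa1-2* after 60 min on ATP medium. Below, untreated is also written as before ATP or before treatment. The labels give seedlings 4 days old and 2 biological replicates per condition, but the tables hold 1 value per gene and condition. Hence no value below has a replicate error, no p-value is given, and every difference compares 4 single columns. The mutant carries 1 allele of *GPA1* in the WS background, and the material, roots in the labels and root tips in the methods, mixes all cell types of the root. The untreated roots are given as 0 min, and a transfer of them to medium without ATP is not stated. Effects of ATP and of transfer and time therefore cannot be told apart within a genotype.

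Heterotrimeric G proteins couple receptors at the plasma membrane to responses inside the cell. In *Arabidopsis* the α subunit is encoded by *GPA1*, beside a family of extra-large Gα proteins and shared β and γ subunits. Released ATP is known as a damage signal that is bound by the lectin receptor kinase DORN1, raises cytosolic calcium and reaches genes that also respond to wounding and jasmonate. Jasmonate acts by removing the JAZ repressors, which are themselves induced by the hormone and so serve as a record of its signalling.

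The recovered depth was 11769875 to 13483768 reads per condition. *GPA1* (AT2G26300) was at 51.9 FPKM before and 46.5 after ATP in WS, and at 28.6 before and 31.1 after ATP in *gpa1-2*. Its transcript was thus lower in the mutant columns but present in them, and the tables do not show which part of the gene the reads cover. The 8 root markers were detected in every column, among them *CASP1* of the endodermis at 391 to 534 FPKM. Of 6 shoot markers none passed 12.9 FPKM. The columns are named by number only. Genotype was taken from the table, and which column is ATP-treated was taken from the direction in which the numbers of genes marked in each table match those the study gives, so every sign below rests on that assignment.

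Most genes differed little between genotypes. The median difference was -0.04, with a standard deviation over genes of 0.43, and 79.8% of genes differed by less than 0.5. A difference of 1 or more was found for 306 genes (1.64% of those compared), which are called higher in WS. For 269 genes (1.44%) it was -1 or less, and these are called higher in *gpa1-2*. Every count of list members given below is to be read beside these 2 shares of all genes. Over all genes 45.8% of differences were above 0 and 54.2% below. Exact 95% Clopper-Pearson intervals of the ATP to untreated ratio of reads were computed in each genotype, and they cover counting error only. These intervals did not overlap between the genotypes for 230 of the 306 genes (1.23% of all genes compared) and for 204 of the 269 genes (1.09%). For the remaining 141 genes the intervals of the genotypes overlap. Of the 575 genes, 142 overlap another annotated gene (24.7%, against 31.7% of all genes compared), and since the use of strand is not given in the sources used here, their reads cannot be assigned with certainty.

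**Figure D1:**
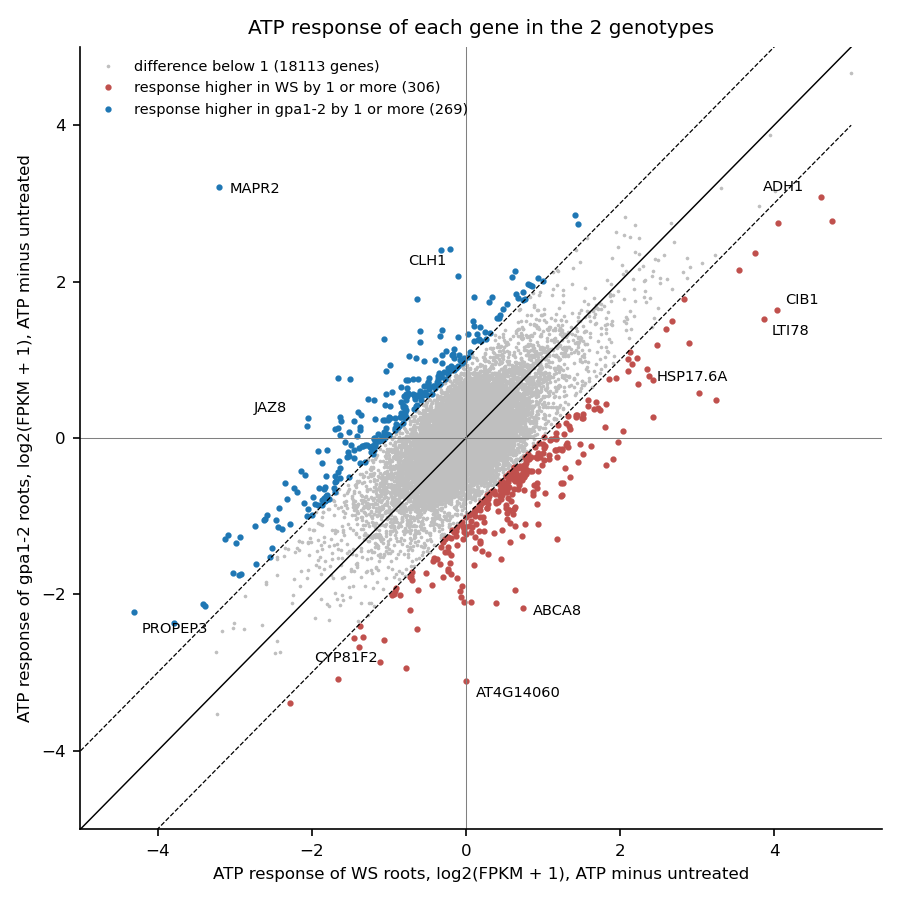
Each point is 1 gene, with the ATP response of WS on the horizontal axis and that of *gpa1-2* on the vertical axis, both in log2(FPKM + 1) units. The solid line marks equal responses and the dashed lines a difference of 1. Red points (306 genes) lie below the lower dashed line, blue points (269 genes) above the upper one, and *MAPR2* stands alone at the upper left.

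The 2 sides were built differently. Among the 306 genes higher in WS, 67 were up-regulated by at least 1 in WS only and 85 were down-regulated by at least 1 in *gpa1-2* only. A further 15 were up-regulated and 8 down-regulated in both genotypes to unequal extent, 1 moved by at least 1 in opposite directions, and 130 moved by less than 1 in each. Among the 269 genes higher in *gpa1-2*, 102 were down-regulated in WS only and 54 were up-regulated in *gpa1-2* only. In this set 21 were down-regulated in both, 2 up-regulated in both, 2 moved in opposite directions and 88 moved by less than 1 in each. Over all genes compared, 2.75% were up-regulated by at least 1 in WS and 3.36% down-regulated, against 2.75% and 2.94% in *gpa1-2*.

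The difference between responses equals the genotype difference before ATP minus that after ATP, so both time points contribute. For the 306 genes the median of *gpa1-2* minus WS was 0.65 in untreated roots and -0.66 after ATP. For the 269 genes it was -0.54 in untreated roots and 0.73 after ATP. Choosing genes by the difference between responses favours opposite signs before and after ATP, also where counting error alone is large. These medians are therefore no separate result. A genotype difference of at least 1 was present before treatment in 45 of the 306 genes and after ATP in 57, including 3 at both points, while 207 reached 1 at neither. The same counts among the 269 genes were 22 before treatment, 56 after ATP, 3 at both and 194 at neither. Therefore in most of these genes neither genotype difference alone reached 1.

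**Figure D2:**
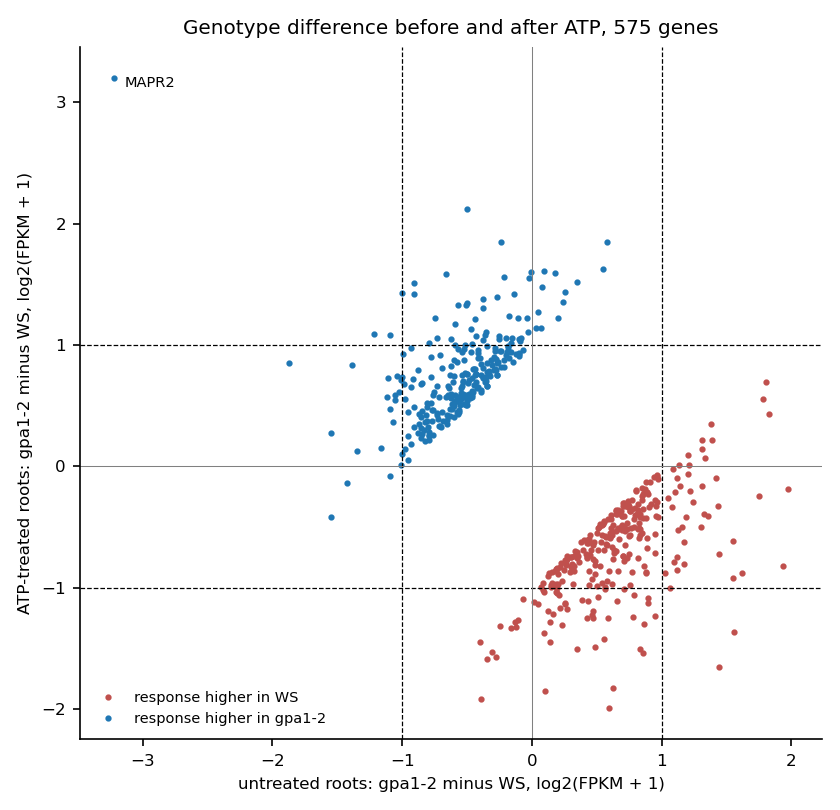
Each point is 1 of the 575 genes, with *gpa1-2* minus WS in untreated roots on the horizontal axis and in ATP-treated roots on the vertical axis, in log2(FPKM + 1) units. The dashed lines mark 1 and -1, and most points of both colours lie within them, at a median of 0.65 and -0.66 for the red genes and -0.54 and 0.73 for the blue genes. The empty diagonal band follows from the choice of genes with a difference of at least 1, and that choice also favours medians of opposite sign.

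Jasmonate genes lay on the *gpa1-2* side. Of 13 JAZ repressors, 6 had a response higher in *gpa1-2* by at least 1, against 1.44% of all genes, and none a response higher in WS. The list median was -0.93, against -0.04 for all genes. The list had a median of -1.73 for the WS response and -0.32 for that of *gpa1-2*, and 9 members were down-regulated by at least 1 in WS but 2 in *gpa1-2*. *JAZ8* was at 65.5 FPKM in untreated WS and 15.1 after ATP, and at 27.6 in untreated *gpa1-2* and 33.3 after ATP. It thus began higher in WS and ended lower there, a difference of -2.30. *JAZ9* went from 193 to 52.5 FPKM in WS, against 130 to 104 in *gpa1-2*, a difference of -1.54. *JAZ5* went from 65.1 to 12.2 in WS, against 35.7 to 20.3 in *gpa1-2*, also a difference of -1.54. In *JAZ5* and *JAZ9* the direction was therefore the same in both genotypes and the size was not. *JAZ13*, a non-canonical member of the family, went from 51.7 to 5.23 FPKM in WS, against 36.3 to 14.8 in *gpa1-2*. The other members past 1 were *JAZ10* (-1.52) and *JAZ2* (-1.27), and *JAZ4* was the sole member above 0, at 0.44.

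Genes of jasmonate synthesis and signalling followed in part, with 5 of 22 higher in *gpa1-2*, none higher in WS, and a median of -0.42. *LOX3*, a 13-lipoxygenase of the plastid at the start of the pathway, went from 12.9 to 2.66 FPKM in WS, against 9.66 to 8.52 in *gpa1-2*, a difference of -1.76. *AOS*, the allene oxide synthase of the following step, went from 242 to 120 FPKM in WS, against 179 to 210 in *gpa1-2*. The counting intervals of its responses were -1.09 to -0.94 in WS and 0.16 to 0.30 in *gpa1-2*, which lie on opposite sides of 0. *AOC1*, an allene oxide cyclase, went from 4.77 to 6.31 FPKM in WS, against 3.20 to 13.7 in *gpa1-2*. The activator *ORA47* fell in both genotypes, from 21.0 to 2.59 FPKM in WS, against 9.32 to 3.98 in *gpa1-2*. *LOX4*, another 13-lipoxygenase, had a difference of -1.18.

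Enzymes that break down or inactivate jasmonate moved the other way in response but lay on the same side. Over the 10 genes listed, the median response was 0.53 for WS and 1.07 for *gpa1-2*, the median difference was -0.48, and 2 members were past -1. *JOX3*, a jasmonate oxidase, went from 5.35 to 15.9 FPKM in WS, against 3.26 to 29.7 in *gpa1-2*. *CYP94B1*, a hydroxylase of jasmonoyl-isoleucine, was at 40.3 and 41.1 FPKM in WS and at 22.8 and 47.9 in *gpa1-2*. Hence the medians of all 3 jasmonate lists lay on the *gpa1-2* side, although their responses to ATP pointed in different directions.

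**Figure D3:**
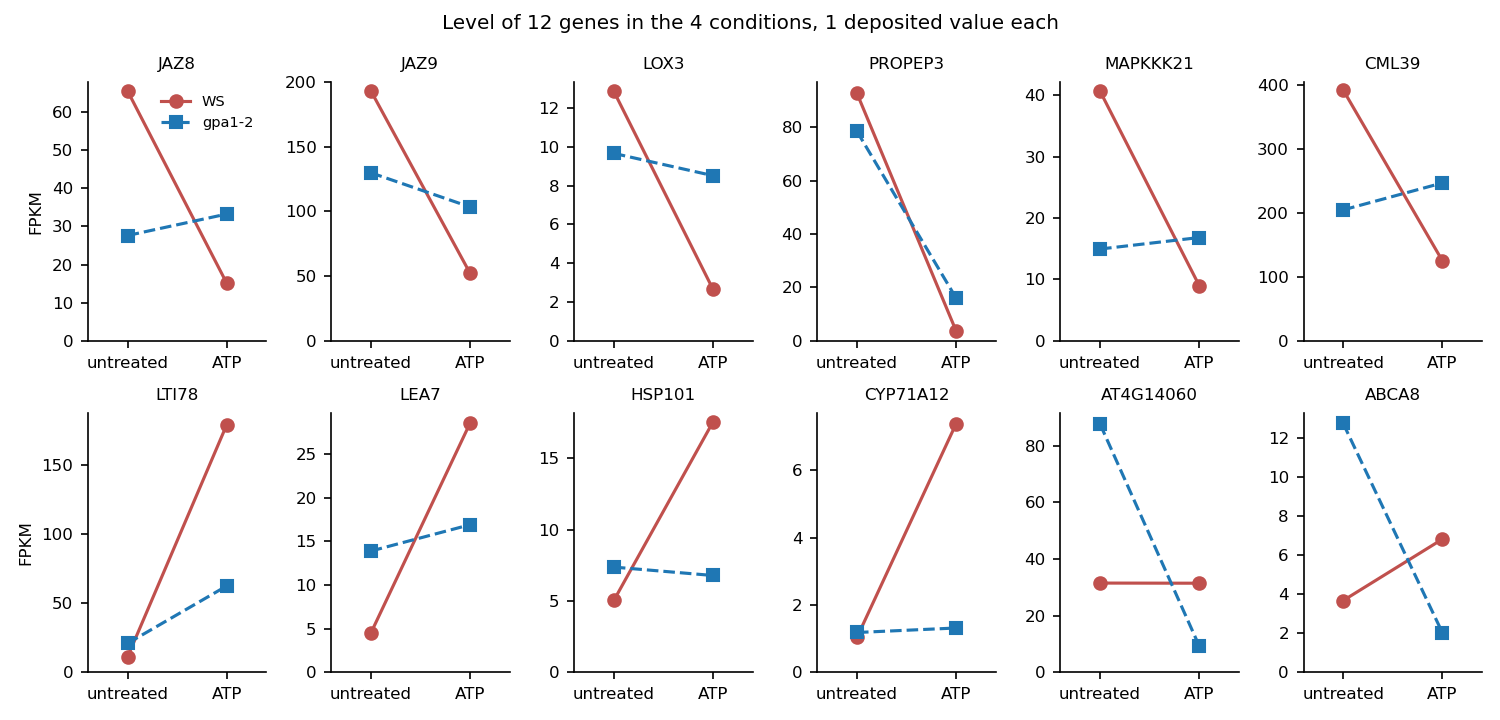
FPKM (linear axis from 0) of 12 genes in untreated and ATP-treated roots, with red circles for WS and blue squares for *gpa1-2*, 1 deposited value per point. In the upper row the WS lines drop more steeply than those of *gpa1-2*, as for *JAZ8* (65.5 to 15.1 against 27.6 to 33.3). In the lower row *LTI78*, *LEA7*, *HSP101* and *CYP71A12* climb more in WS, and AT4G14060 and *ABCA8* drop in *gpa1-2*.

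Danger peptides and their receptors had the lowest list median, -1.10 over 7 genes, with 5 members past -1. PROPEP genes encode precursors of the Pep peptides, which the receptor kinases PEPR1 and PEPR2 bind after wounding or microbial attack. *PROPEP3* went from 92.6 to 3.72 FPKM in WS, against 78.4 to 16.0 in *gpa1-2*, a response of -4.31 against -2.22. *PROPEP2* started equal in both genotypes, at 39.5 and 39.3 FPKM, and reached 5.08 in WS and 17.5 in *gpa1-2*. *PROPEP4* went from 273 to 307 FPKM in WS, against 244 to 589 in *gpa1-2*. *PEPR2* went from 28.2 to 8.42 FPKM in WS, against 18.4 to 12.7 in *gpa1-2*. *PROPEP1* was past the threshold at -1.07, whereas *PEPR1* (-0.55) and *PROPEP6* (0.52) were not.

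Several signalling genes of kinase cascades and calcium lay on the same side. *MAPKKK21*, a MAP kinase kinase kinase, went from 40.6 to 9.0 FPKM in WS, against 14.9 to 16.8 in *gpa1-2*, a difference of -2.22. Its relative *MAPKKK19* went from 24.6 to 6.36 in WS, against 12.5 to 11.1 in *gpa1-2*, and all 8 members of *MAPKKK13* to *MAPKKK21* that were compared lay below 0, with a median of -0.57. *CML39*, a calmodulin-like calcium sensor, went from 393 to 126 FPKM in WS, against 205 to 247 in *gpa1-2*, a difference of -1.91. Its neighbour in the family *CML38* went from 264 to 106 FPKM in WS, against 144 to 136 in *gpa1-2*. Of the 12 calmodulin-like genes listed, 11 lay below 0 and these 2 were past -1. A wider list of 35 calmodulin-like genes, found by description after the values were seen, had 3 members higher in *gpa1-2* and 2 in WS, with 26 below 0 and a median of -0.30. One of the members on the WS side was AT3G10190, described as *CML36*, which was at 7.59 and 8.77 FPKM in WS and at 13.1 and 4.68 in *gpa1-2*. The 27 calcium-dependent protein kinases listed had none past 1 in either direction and a median of -0.13. *DORN1* itself went from 49.2 to 25.6 FPKM in WS, against 39.4 to 35.4 in *gpa1-2*, a difference of -0.77.

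Some transcription factors of stress responses were found on this side as well. Of 54 WRKY factors 6 were higher in *gpa1-2*, against 1.44% of all genes, and none in WS, although the median of the family was -0.01. *WRKY40*, a repressor of defence genes, went from 278 to 60.0 FPKM in WS, against 171 to 106 in *gpa1-2*. *WRKY30* was equal before treatment, at 30.4 and 29.9 FPKM, and reached 4.14 in WS and 14.1 in *gpa1-2*. The ethylene response factor *ERF13* went from 89.2 to 9.31 FPKM in WS, against 40.9 to 16.1 in *gpa1-2*, and *ERF109* from 227 to 28.9 in WS, against 114 to 46.8 in *gpa1-2*. The 10 group IX ERF factors had a median of -0.43 with 2 past -1, and the 7 of group X a median of -0.18 with 1 past -1. Among 12 stress zinc fingers 2 were higher in WS and 1 in *gpa1-2*, while 9 lay below 0 and the median was -0.25. *ZAT18* was the member past the threshold on the *gpa1-2* side, at -1.81, and *ZAT6* was on the other side, with 28.7 to 79.8 FPKM in WS and 44.5 to 54.6 in *gpa1-2*. The 9 ethylene synthesis genes listed had none past 1.

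Other genes with the lowest differences had varied functions. *AAE12*, which the tables describe as an acyl-activating enzyme of the peroxisome, went from 9.25 to 2.25 FPKM in WS, against 4.13 to 7.75 in *gpa1-2*. *CLH1*, a chlorophyllase that responds to jasmonate, was at 2.52 and 2.29 FPKM in WS and moved from 0.651 to 5.96 in *gpa1-2*. AT3G59710, described as a carbonyl reductase, was at 11.3 and 9.72 FPKM in WS and moved from 7.72 to 45.6 in *gpa1-2*. The defensin-like gene *LCR24* (-2.42) and AT1G21528 (-2.73) rested on few reads, 7 to 33 and 4 to 26 per column. AT4G37710, with no function given in the tables, went from 44.7 to 15.2 FPKM in WS, against 27.8 to 47.5 in *gpa1-2*. The methyltransferase gene *FAMT* was at 245 and 199 FPKM in WS and 189 and 493 in *gpa1-2*, and its relative AT3G44870 at 229 and 151 in WS and 161 and 380 in *gpa1-2*. As reads could be split between members of such a family, these 2 genes are uncertain.

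Genes of root growth and uptake appeared singly on the *gpa1-2* side. *EXPA8*, an α-expansin that loosens cell walls, went from 19.7 to 7.53 FPKM in WS and was at 23.6 and 22.1 in *gpa1-2*. *XTH2* (-1.68) and *XTH31* (-1.05) encode xyloglucan-modifying enzymes, and they were the 2 of 28 XTH genes past the threshold. *CASP4* of the Casparian strip went from 63.8 to 33.1 FPKM in WS, against 60.8 to 65.4 in *gpa1-2*. *FIT*, the regulator of iron uptake, went from 17.3 to 27.7 FPKM in WS, against 12.5 to 47.3 in *gpa1-2*. On the opposite side *NAS1*, a nicotianamine synthase of metal transport, went from 11.2 to 17.2 FPKM in WS, against 23.8 to 8.89 in *gpa1-2*.

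Dehydration and cold genes lay on the WS side. Of 22 such genes 5 had a response higher in WS and none a response higher in *gpa1-2*, with a median of 0.25, and 17 were above 0. *LTI78* (also *RD29A*), a classical target of ABA and cold signalling, went from 11.4 to 180 FPKM in WS, against 21.1 to 62.7 in *gpa1-2*. The responses were 3.87 and 1.53, with counting intervals of 3.81 to 4.16 and 1.43 to 1.71. Its neighbour *LTI65* (*RD29B*) went from 2.2 to 7.82 FPKM in WS, against 4.05 to 3.08 in *gpa1-2*. *LEA7*, a late embryogenesis abundant protein gene, went from 4.47 to 28.5 FPKM in WS, against 13.9 to 16.9 in *gpa1-2*, and *LEA4-5* from 13.4 to 33.2 and from 24.7 to 22.0. *LEA18* was at 1.41. These 4 genes other than *LEA18* began lower and ended higher in WS than in *gpa1-2*. Other members such as *COR47* (0.16), *KIN2* (0.02) and *ERD14* (-0.22) differed little.

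Genes that act with these were partly affected. Of 5 galactinol and raffinose synthases, a list added after the values were seen, *GolS4* went from 1.35 to 16.6 FPKM in WS, against 2.23 to 6.49 in *gpa1-2*. *GolS1* was at 8.01 and 10.6 FPKM in WS and at 11.8 and 4.52 in *gpa1-2*. Among 26 core ABA signalling genes 2 were past 1, against 1.64% of all genes, and the median was 0.15. These were *ABI2* and *HAI1*, both protein phosphatases that restrain ABA signalling. *HAI1* was at 14.0 and 16.0 FPKM in WS and at 26.4 and 14.0 in *gpa1-2*. The 8 CBF and DREB factors had a median of 0.06, with 1 past -1 and none past 1.

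Heat shock genes held 6 of 43 members higher in WS, against 1.64% of all genes, and none higher in *gpa1-2*, although the list median was only 0.06. *HSP101*, a chaperone needed for heat tolerance, went from 5.04 to 17.6 FPKM in WS and was at 7.38 and 6.79 in *gpa1-2*. *Hsp70b* went from 7.07 to 14.3 FPKM in WS, against 8.30 to 6.81 in *gpa1-2*. *HSP17.6A* went from 0.844 to 14.0 FPKM in WS, against 1.84 to 3.22 in *gpa1-2*, based on 4, 68, 9 and 17 reads. The heat stress factor *HSFA7A* was instead down-regulated in *gpa1-2*, from 52.8 to 15.3 FPKM, against 32.3 to 22.2 in WS. AT1G54050, a small heat shock protein gene outside the list, had a difference of 2.18 on 7 to 42 reads per column. The 17 endoplasmic reticulum chaperones had a median of -0.43, with 14 members below 0 and *BIP3* (-1.19) past the threshold.

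Low oxygen genes had a positive median response in both genotypes. The median was 1.42 for the WS response and 0.93 for that of *gpa1-2*, and 14 and 9 of 20 were up-regulated by at least 1, with 1 down-regulated in each. By at least 1, 3 members were higher in WS and 1 in *gpa1-2*, and 16 lay above 0. The median difference was 0.51, the highest of the 43 lists. *ADH1*, the alcohol dehydrogenase of fermentation, went from 2.24 to 78.3 FPKM in WS, against 1.47 to 19.9 in *gpa1-2*. *HRE2*, a hypoxia-responsive ERF factor, was at 1.47 and the aquaporin *NIP2;1* at 1.29, and these 3 genes were the ones past 1. *SRO5* was past the threshold on the other side, at -1.22, with 154 to 96.5 FPKM in WS and 99.7 to 146 in *gpa1-2*.

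Secondary metabolism was represented on both sides. Of 140 cytochrome P450 genes 11 were higher in WS and 8 in *gpa1-2*, against 1.64% and 1.44% of all genes, and the median was 0.07. *CYP71A12*, of camalexin and indole metabolism, went from 1.04 to 7.38 FPKM in WS and was at 1.18 and 1.32 in *gpa1-2*. *CYP81F2*, of indole glucosinolate modification, went from 6.37 to 3.31 FPKM in WS, against 28.0 to 2.78 in *gpa1-2*, so that the difference came mainly from its high level in untreated *gpa1-2*. *CYP735A2*, which makes trans-zeatin type cytokinins, went from 5.32 to 9.50 FPKM in WS, against 8.31 to 2.92 in *gpa1-2*. The cytokinin response regulator *ARR6* was at 16.7 and 24.6 FPKM in WS and at 26.0 and 16.2 in *gpa1-2*, the 1 of 10 type-A regulators past the threshold. *CYP702A6* went from 6.03 to 12.4 FPKM in WS, against 12.1 to 5.13 in *gpa1-2*. AT1G26380, described as a reticuline oxidase-like protein, was at 0.911 and 1.5 FPKM in WS and moved from 4.86 to 0.359 in *gpa1-2*.

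Several genes for secreted proteins were down-regulated in *gpa1-2* by more than in WS. Among 39 glycine-rich proteins found by their description after the values were seen, 7 were higher in WS and 1 in *gpa1-2*, with a median of 0.11. *GRP9* was at 1100.1 and 1041 FPKM in WS and moved from 2348 to 603 in *gpa1-2*, and *DOT1* was at 919 and 1002 in WS and went from 1264 to 527 in *gpa1-2*. Of 16 lipid transfer proteins, also listed after the values were seen, 4 were higher in WS and 1 in *gpa1-2*, although 10 lay below 0 and the median was -0.09. *LTP2* went from 7.73 to 12.6 FPKM in WS, against 12.2 to 2.43 in *gpa1-2*. AT3G58550 was at 157 and 150 FPKM in WS and moved from 341 to 82.3 in *gpa1-2*. *FACT*, an acyltransferase gene on the suberin list, was at 51.3 and 50.4 FPKM in WS and moved from 108 to 24.6 in *gpa1-2*. It was the 1 of 16 suberin genes past the threshold, the list median was 0.16, and the other 15 lay between -0.37 and 0.53 (*LTPG1* and *FAR4*). The metallothionein gene *MT2A* (196 and 190 FPKM in WS, 339 and 90.5 in *gpa1-2*) changed little in WS, whereas the osmotin gene *OSM34* (85.2 and 54.5 in WS, 194 and 35 in *gpa1-2*) was lower after ATP in both genotypes.

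The highest differences included genes outside the lists. AT4G14060, an MLP-like protein gene, stayed at 31.5 FPKM in both WS conditions and went from 87.6 to 9.33 in *gpa1-2*, a difference of 3.1. *ABCA8*, an ABC transporter gene, went from 3.68 to 6.82 FPKM in WS, against 12.7 to 2.04 in *gpa1-2*, a difference of 2.92. The study names it *ATH7* and reports by qPCR an increase after ATP in WS that was not significant in Gα null mutants. Its qPCR genes were picked from its own expression data for being up-regulated in WS and not in the mutants. The same outcome is reported for *WAG1* and *WAG2*, whose counting intervals here overlap between genotypes. In *gpa1-2* these were above 0, at 0.28 to 1.09 and 0.03 to 0.63. *GH3.4* and *CRK40*, also in that qPCR set, did not meet the conditions for comparison here. *CIB1*, a bHLH transcription factor known from blue light signalling in flowering, went from 0.979 to 31.4 FPKM in WS, against 2.58 to 10.1 in *gpa1-2*. AT5G45430, described as a cyclin-dependent kinase, had 1 read in untreated WS and 226 after ATP, and 77 and 127 in *gpa1-2*. With 1 read the WS ratio is loose, at a counting interval of 5.29 to 13.09 on the log2 scale. AT4G10955, described as a lipase, had 95 reads in untreated *gpa1-2* and 0 after ATP, against 28 and 42 in WS, so no fold change is given. AT5G20790, with no function given in the tables, was at 1.64 and 8.34 FPKM in WS and at 6.74 and 5.10 in *gpa1-2*, on 9 to 50 reads per column. The potassium transporter *HAK5* went from 31 to 77 FPKM in WS, against 60.7 to 46.4 in *gpa1-2*.

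Enzymes of redox and detoxification had genes past the threshold on both sides. Of 54 class III peroxidases 3 were higher in WS and 1 in *gpa1-2*, against 1.64% and 1.44% of all genes, and the median was -0.24. The peroxidase gene AT5G19890 went from 4.25 to 16.5 FPKM in WS, against 9.20 to 12.1 in *gpa1-2*. *PER4* went from 117 to 52.8 FPKM in WS, against 95.1 to 92.3 in *gpa1-2*, and so lay on the opposite side. Of 43 glutathione S-transferases 2 were higher in WS and 1 in *gpa1-2*, while 29 lay below 0 and the median was -0.16. *GSTF7* went from 119 to 171 FPKM in WS, against 277 to 148 in *gpa1-2*. *GSTU8* had the reverse form, with 55.8 to 41.1 FPKM in WS and 37.5 to 59.9 in *gpa1-2*.

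Further single genes past the threshold were picked after their values were seen, apart from *PHO2* and *DIN2*, which were on lists. *YUC6*, an enzyme of auxin synthesis, was at 2.76 and 7.36 FPKM in WS and at 7.28 and 6.45 in *gpa1-2*, a difference of 1.31. *PHO2*, which restrains phosphate uptake, was at 23.3 and 25.5 FPKM in WS and at 29.1 and 14.1 in *gpa1-2*. *LSU1*, a gene induced by low sulphur, was at 18.9 and 46.4 FPKM in WS and at 69.6 and 62.9 in *gpa1-2*, so that the genotypes differed most before treatment. *DIN2*, a beta-glucosidase gene induced in the dark, was at 2.15 and 3.58 FPKM in WS and at 3.66 and 1.27 in *gpa1-2*. The transcription factor gene *HB-7*, a target of ABA and drought, was at 30.1 and 45.1 FPKM in WS and at 68.4 and 31.7 in *gpa1-2*. On the *gpa1-2* side, *NAP*, a NAC factor of leaf senescence, was at 15.1 and 6.88 FPKM in WS and at 7.43 and 11.4 in *gpa1-2*. *NDR1*, a plasma membrane protein of disease resistance, was at 43.9 and 7.56 FPKM in WS and at 22.9 and 9.69 in *gpa1-2*.

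Gene ontology terms of the tables were counted without a test. Of 526 terms with at least 40 compared genes, those with the largest share of genes higher in *gpa1-2* were response to fungus (12 of 85, or 14.1%) and jasmonic acid biosynthesis (16 of 138, or 11.6%). Callose deposition in defence (5 of 49), ethylene signalling (10 of 105), ethylene biosynthesis (11 of 120) and ABA signalling (20 of 225) came next, against 1.44% of all genes. Ethylene signalling also had 5 genes (4.76%) and ABA signalling 6 genes (2.67%) higher in WS, both above the 1.64% of all genes on that side. The same genes recur in these terms, since *LOX3* is in 5 of the 6. The 16 genes of the jasmonic acid term include JAZ repressors, *CML39*, *CML38*, *WRKY40* and the breakdown gene *CYP94B1*. Beside them stand the synthesis genes *LOX3*, *AOC1*, *AOS* and *LOX4*. The ABA term was led by *MAPKKK21*, *CML39* and *ERF13* rather than by ABA core genes. Likewise the 11 genes of ethylene biosynthesis were led by *JAZ8*, *ZAT18* and *LOX3*. They include no member of the ethylene synthesis list, which had none past the threshold. On the WS side the largest shares belonged to response to hypoxia (6 of 55, or 10.9%), lipid binding (5 of 51) and defence to fungus in an incompatible interaction (4 of 42). Osmotic stress (4 of 43), drug transport (4 of 44) and monooxygenase activity (10 of 115) followed, against 1.64% of all genes. Monooxygenase activity also had 4 genes (3.48%) and defence to fungus 1 gene (2.38%) higher in *gpa1-2*. The 5 genes of lipid binding were *LTP2*, AT3G58550, AT5G01870, AT2G18370 and *EARLI1*.

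**Figure D4:**
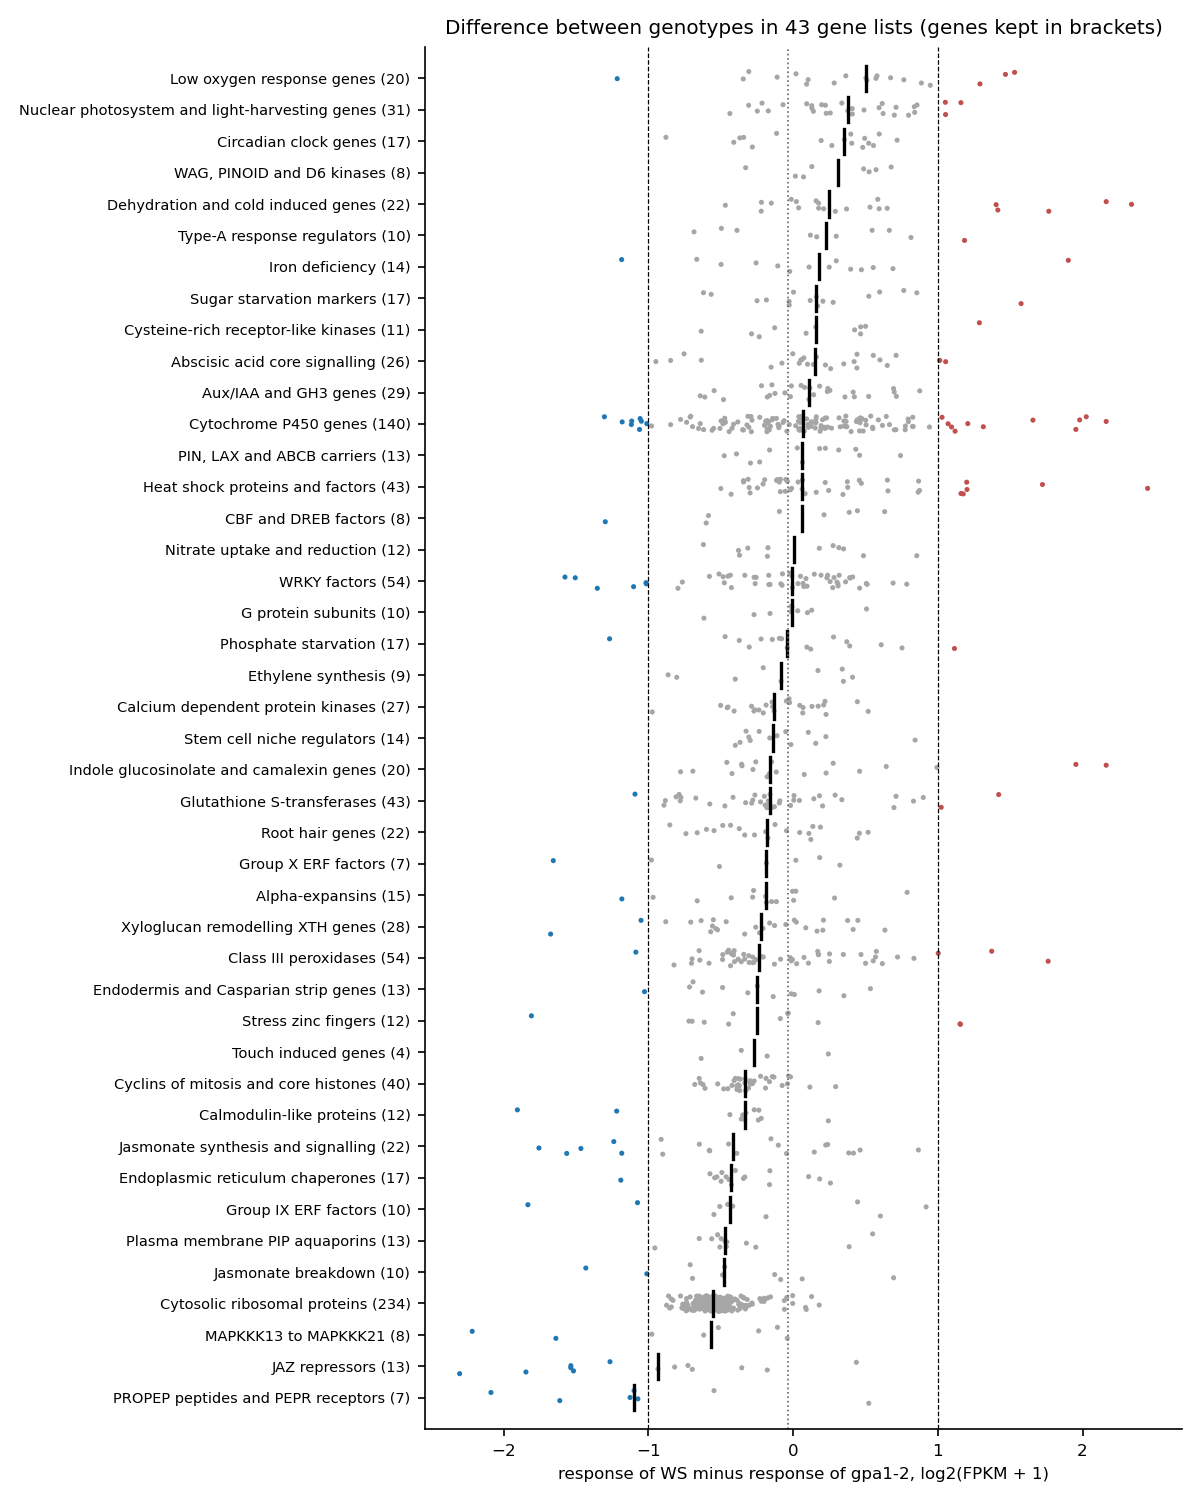
Each point is 1 gene of 43 lists and its position the response of WS minus that of *gpa1-2* in log2(FPKM + 1) units, with red from 1 and blue from -1, and vertical scatter within a row for visibility only. The black bar is the list median, the dotted line the median of all genes (-0.04) and the dashed lines 1 and -1. The lists run from PROPEP and PEPR genes (-1.10) and JAZ repressors (-0.93) at the bottom to low oxygen genes (0.51) at the top.

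Cytosolic ribosomal proteins shifted together without any gene past the threshold. Of 234 genes 230 lay below 0, the median was -0.55, and the range was -0.87 to 0.18. The genes listed as cytosolic include a few mitochondrial ones, among them *RPS10* (AT3G22300) and *RPS19* (AT5G47320). The WS response had a median of 0.02 and that of *gpa1-2* one of 0.57. The summed level of the list was 101607 FPKM in untreated WS and 103956 after ATP, and 83337 FPKM in untreated *gpa1-2* and 125884 after ATP. Counting intervals of the genotypes did not overlap for 203 of the genes, against 22.9% of all genes compared. Such intervals narrow as reads increase, and these genes are highly expressed, so the 2 shares are not like for like. They also take no account of gene length. Smaller shifts to the same side were seen for 80 plastid and mitochondrial ribosomal proteins (-0.28), 35 proteasome subunits (-0.31), 40 histones and mitotic cyclins (-0.33) and 13 PIP aquaporins (-0.47). The first 2 of these lists were added after the values were seen.

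Gene length moved with the difference and accompanies these shifts. In 5 equal groups by length, taken as the scaled count per FPKM, the median difference was -0.26, -0.14, -0.05, -0.01 and 0.19 from the shortest to the longest genes. Genes higher in WS numbered 98 in the shortest group and 51 in the longest, while those higher in *gpa1-2* numbered 147 and 9. The ribosomal protein genes had a median length of 0.41 relative to the middle gene, equal to that of the shortest group. After each difference was centred on genes of similar length, the ribosomal median was -0.34 in place of -0.55. Under the same centring the JAZ median was -0.87 and the low oxygen median 0.48. Other medians moved more, with the 12 calmodulin-like genes at -0.09 in place of -0.33, the plastid and mitochondrial ribosomal proteins at -0.13 in place of -0.28 and the histones and mitotic cyclins at -0.18 in place of -0.33. The median of the dehydration and cold genes was 0.48 in place of 0.25. In all, 19 of the 54 list medians moved by at least 0.1, and 355 genes were then higher in WS and 181 in *gpa1-2*.

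**Figure D5:**
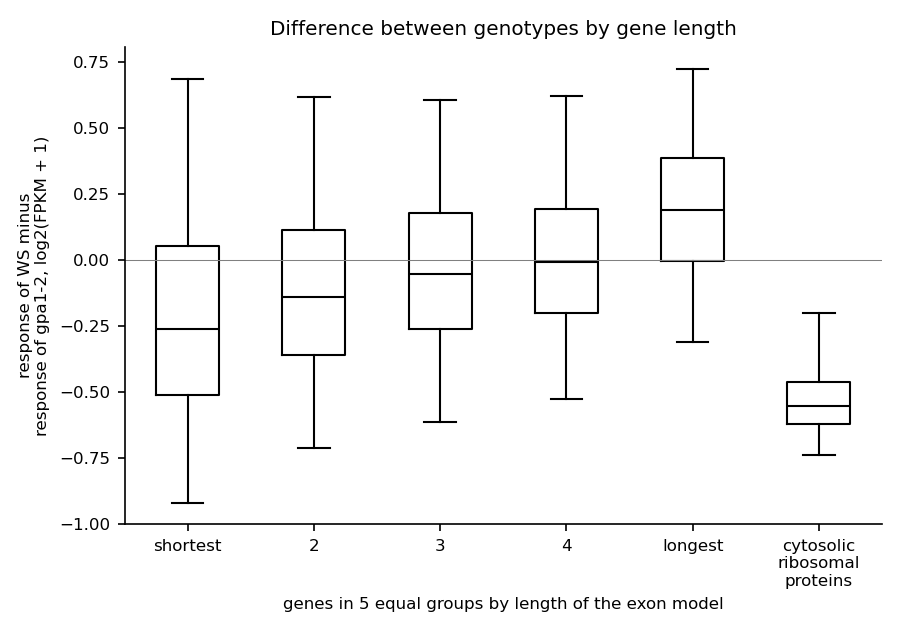
Box plots of the response of WS minus that of *gpa1-2*, in log2(FPKM + 1) units, for genes in 5 equal groups by length of the exon model and for the 234 genes listed as cytosolic ribosomal proteins. Lines are medians, boxes quartiles and whiskers the 5th and 95th percentiles over genes. The medians climb from -0.26 to 0.19 with length, and the ribosomal genes lie at -0.55.

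The lists of G protein genes, auxin carriers, Aux/IAA and GH3 genes and WAG, PINOID and D6 kinases held no gene past the threshold. Outside these lists *ABCA8* (2.92) and the auxin synthesis gene *YUC6*, both given above, were past it. The G protein list had 10 genes compared, the subunit genes with the regulator *RGS1* and *GCR1*, described as a G-protein coupled receptor. None was past the threshold, and the differences ran from -0.62 for *GCR1* to 0.51 for *XLG3*. Among the subunit genes the lowest was *GPA1*, at -0.27. The β subunit gene *AGB1* was at 59.5 and 47.6 FPKM in WS and at 63.6 and 51.4 in *gpa1-2*, a difference of -0.01. The 13 PIN, LAX and ABCB auxin carriers had a median of 0.06 and the 29 Aux/IAA and GH3 genes one of 0.11, with none past 1 in either list. *PIN2*, the auxin efflux carrier of root gravitropism, went from 40.6 to 90.5 FPKM in WS, against 36.3 to 65.0 in *gpa1-2*, a difference of 0.31. The kinase gene *WAG1* went from 2.80 to 8.18 FPKM in WS, against 5.42 to 8.71 in *gpa1-2*, a difference of 0.68, and *WAG2* had one of 0.49. These belong to a list of 8 WAG, PINOID and D6 kinases, of which 7 lay above 0, with a median of 0.31. For *WAG1* and *WAG2* the levels after ATP were close and the genotypes differed before treatment.

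Markers of root tissue were compared because bulk roots cannot tell fewer cells of a type from less RNA per cell. The 22 root hair genes had a median of -0.18, the 14 stem cell niche regulators -0.14 and the 13 endodermis genes -0.25, with only *CASP4* past the threshold. *WOX5*, the marker of the quiescent centre, went from 2.64 to 50.1 FPKM in WS, against 5.29 to 48.1 in *gpa1-2*. It was thus strongly up-regulated in both genotypes, with a difference of 0.84. The 31 nuclear photosystem genes, which mark green tissue, had median responses of -0.71 for WS and -1.05 for *gpa1-2*, a median difference of 0.38, and 3 members past 1. Their summed level was 237 FPKM in untreated WS, 144 after ATP, 226 in untreated *gpa1-2* and 96.6 after ATP. These markers moved with the comparison, and their part in the differences above was not tested.

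*MAPR2* (AT2G24940), described as a membrane steroid-binding protein, had by far the lowest difference, -6.42. It was at 9.43 FPKM in untreated WS and 0.136 after ATP, and at 0.119 in untreated *gpa1-2* and 9.40 after ATP. The reads behind these values were 275, 4, 4 and 304. It was therefore near absent in 1 condition of each genotype, and the condition was the opposite one. The next lowest difference was -2.73. With a minimum of 20 reads per genotype, AT1G53870 and AT1G19397 also moved by at least 1 in opposite directions, on 11 to 45 and 5 to 28 reads per column.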

How the data were processed

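Labels and methods describe Affymetrix arrays (MAS5), whereas the tables deposited by the authors give, for every condition, 1 column of counts scaled between libraries (a signal, not raw counts) and 1 of FPKM. The aligner, genome build, annotation, filters and use of strand are not given in the sources used here. The seedling ages of the labels and methods differ, and the ATP concentration is not in the labels. The tables also hold the authors' own p-value, FDR, fold change and significance columns. None of their values was used, except that the number of genes marked in each direction served to tell the ATP column from the untreated one. After this 0 further columns of sample values remained. Genotype followed from the table.

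FPKM was put on the log2(FPKM + 1) scale. The design named limma for values per sample and a threshold of 1 for 1 value per condition, and the latter applied. Whole reads were recovered from the steps of low scaled counts (98.9% to 99.3% whole within 0.1). Each column held 2 close steps, and their parts were not used as replicates. Intervals are exact (Clopper-Pearson, 95%).

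Members, the 43 gene lists and the rules were chosen with earlier results of these data known, and 11 further lists and the gene ontology terms after the values were seen. Genes named were drawn from the 12 highest and 12 lowest differences with at least 20 reads per genotype and intervals apart, up to 4 per list past 1, genes with opposite responses, and *GPA1*, *WAG1*, *WAG2*, *PIN2*, *DORN1* and G protein genes. Others (*HAK5*, *YUC6*, *LSU1*, *HB-7*, *NAP*, *NDR1*, *MT2A*, *OSM34*, *FAMT*, AT3G44870, *WOX5* and list members given by their difference alone) were chosen after their values were seen. Names came from a TAIR10.1 gene table that held 32797 of 33544 identifiers. The counting of differences was tested on simulated data with counting error only and changes placed in genes of many reads. That test does not cover spread between plants, the trend with gene length or genes of few reads. Computations ran in Python 3.11.15 (pandas 2.3.3, numpy 2.4.6, scipy 1.17.1), and plots were drawn with matplotlib 3.10.9. The alternatives were pseudocounts of 0.1 and 5, other filters, 3 scalings, a threshold of 2, and, added later, length centring and non-overlapping intervals. The promoter search planned in the design was not run.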

Additional observations from a re-analysis of the deposited data

Results flagged for a closer look

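In 3 genes the response was at least 1 in size in both genotypes and opposite in direction, on single values per condition, so the difference was not tested. *MAPR2* had a difference of -6.42 between the responses of WS and *gpa1-2*, with responses of -3.20 and 3.22. AT1G53870, described as a LURP-one-related protein, had a difference of -2.33, with 4.78 and 1.77 FPKM in WS and 2.08 and 6.41 in *gpa1-2*. AT1G19397, an uncharacterized gene that overlaps another annotated gene, had a difference of 2.47, with 0.895 and 3.29 FPKM in WS and 4.55 and 1.27 in *gpa1-2*.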

How the results depend on the processing

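The counts depended on the scale and filters. Genes higher in WS and in *gpa1-2*, 306 and 269 as reported, numbered 530 and 459 with a pseudocount of 0.1, 84 and 105 with a pseudocount of 5, and 617 and 570 with no count minimum. A threshold of 2 left 17 and 11, and a minimum of 10 FPKM left 159 higher in WS. The other counts stayed within 1.5 times. With a count sum of at least 40 they were 204 and 188, with median centring 300 and 280, with upper-quartile scaling 334 and 233, and with quantile normalization 296 and 262. Length centring gave 355 and 181, of which 270 and 169 were among the genes reported, and upper-quartile scaling and length centring raised the share of the WS side. All 103 named genes with a difference of at least 1 kept their sign under these settings, and 67 stayed at 1 or above in size. These genes were named for large differences in the same values, and a filter drops a gene without changing its value. Their kept sign therefore says little. Of the 54 list medians 42 kept their sign, but 21 moved by at least 0.1 with quantile normalization and 19 with length centring. Under quantile normalization the median was -0.02 for peroxidases and for endodermis genes, -0.01 for root hair genes, glutathione S-transferases and calcium-dependent protein kinases, -0.20 for PIP aquaporins, -0.22 for endoplasmic reticulum chaperones, -0.16 for proteasome subunits and -0.28 for cytosolic ribosomal proteins. Under length centring it was -0.02 for glutathione S-transferases, -0.11 for the wider calmodulin-like list, -0.29 for group IX ERF factors and 0.23 for glycine-rich proteins. The WAG, PINOID and D6 kinases had 0.07 with a minimum of 10 FPKM. Those that did not included the WRKY, group X ERF, CBF and DREB, heat shock, ethylene synthesis, PIN, LAX and ABCB and G protein lists. No paired analysis was possible because the columns carry no replicate, and for the same reason no replicate could be left out. Depth limits genes of few reads, and counting intervals say nothing of the spread between plants.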

Other observations

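Other families were counted after the values were seen, with no test. Over all genes 1.64% were higher in WS and 1.44% in *gpa1-2*, and the small counts here are to be read beside these shares. Of 37 MATE efflux proteins, which export metabolites and toxins, 4 were higher in WS and none in *gpa1-2*, with a median of 0.15, and *DTX1* went from 0.676 to 4.48 FPKM in WS, against 1.97 to 2.86 in *gpa1-2*. Of 94 UDP-glycosyltransferases 3 were higher in WS and none in *gpa1-2*, with a median of 0.08. Of 34 legume-type lectin receptor kinases, the family of *DORN1*, 3 were higher in WS and 2 in *gpa1-2*. Of 56 RING-H2 proteins of the ATL type none was higher in WS and 2 were higher in *gpa1-2*. Of the 575 genes past the threshold, 483 belonged to none of the 43 lists.

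The remaining lists were of nutrition and the clock. The 12 nitrate uptake and reduction genes had a median difference of 0.00 and none past 1, although their median response was 0.75 in WS and 0.85 in *gpa1-2*. The 17 clock genes had a median of 0.35, with 11 above 0 and none past 1. The 17 phosphate starvation genes had 1 past the threshold on each side, against 1.64% and 1.44% of all genes.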
